A study of Mus musculus with 2 samples.

Results

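The eicosanoid genes described here are 10 listed genes of the prostaglandin and leukotriene pathway: Pla2g4a, Ptgs1, Ptgs2, Ptges, Ptger2, Ptger4, Alox5, Alox5ap, Lta4h and Ltc4s. They were taken by symbol, and 10 of 10 were found among 55536 annotated gene entries, of which 22015 are nuclear protein-coding genes. The samples were primary bone-marrow-derived macrophages of C57BL/6J mice that carried no labelled transgene and had received Lipid A, the part of bacterial lipopolysaccharide that Toll-like receptor 4 binds, at 100 ng/ml for 60 min. Nucleoplasmic RNA, from the soluble interior of the nucleus, was depleted of ribosomal RNA and sequenced in 2 biological replicates, which are separate biosamples with 1 donor label and no age or sex recorded. An unstimulated library was not analysed here, so all values are levels after stimulation, no gene is described as induced, and no test between groups was possible.

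Both pathways start from arachidonic acid, which cytosolic phospholipase A2 releases from membrane phospholipids. Cyclooxygenases turn it into prostaglandin H2, from which terminal synthases make prostaglandin E2, prostaglandin D2, thromboxane and others, and the E2 form acts on cells through the EP receptors. Alternatively, 5-lipoxygenase, helped by its activating protein at the nuclear envelope, turns arachidonic acid into leukotriene A4, which is then hydrolysed to leukotriene B4 or joined to glutathione to give leukotriene C4. Macrophages are a known source of both kinds of mediator.

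The gene tables held 21256531 expected counts in replicate 1 and 15643649 in replicate 2. An expected count is an estimated number of reads of a gene, and TPM is that number divided by effective length and scaled to a fixed sum per library. Paired values below belong to replicate 1 and then replicate 2. How pure the nuclear fraction was could not be judged from these genes. The labelled cell type was checked against marker genes. All 8 macrophage markers were at a TPM of 10 or more in each library, and their TPM summed to 3481 and 3079. Of 35 markers of other blood cells and fibroblasts, only Pf4 reached a TPM of 1 in both, with 27.4 and 37.6, and 10 were at 0 in both. In a second deposited transcript table, summed per gene, the T cell marker Cd3d also passed, with a TPM of 2.80 and 4.07 against 0 in the gene table. The part of other cells in the levels below was not tested. The markers of mast cells and basophils, which are rich in leukotriene enzymes, summed to a TPM of 0.62 and 1.28. Most of this was Hdc, with 0.59 and 1.07, while Mcpt4, Tpsb2 and Ms4a2 were at 0 in both. Neutrophil markers summed to 2.09 and 1.72. Over detected protein-coding genes, those that reached TPM 1 in each library, the median log2 ratio of TPM in replicate 2 over replicate 1 was -0.42, and each SD of a TPM below includes that shift.

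The eicosanoid genes differed widely in level, and the prostaglandin branch held both the highest member and most of the summed level. Ptgs2, the inducible cyclooxygenase, stood first with a TPM of 57.5 and 51.1, and Alox5, the 5-lipoxygenase gene itself, stood last with 0.21 and 0.48. In total, the 10 genes had a summed TPM of 138 and 106, of which Ptgs2 held 41.7% and 48.3%. TPM 1 was reached in each library by 9 of 10 members, against 39.2% of all nuclear protein-coding genes (8622 of 22015). Counted on coding transcripts alone, 7 members reached it, and the share of all genes in that setting was not computed. TPM 10 was reached by 3 of 10, namely Ptgs2, Alox5ap and Ptger4, against 14.4% of all (3179 of 22015). The median of log2(TPM + 1) over the members was 2.44 ± 0.23 (SD, n = 2), against 0.32 ± 0.05 over all nuclear protein-coding genes and 3.04 ± 0.24 over the detected ones. The typical member thus lay above the median of all genes and below the median of detected genes.

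**Figure D1:**
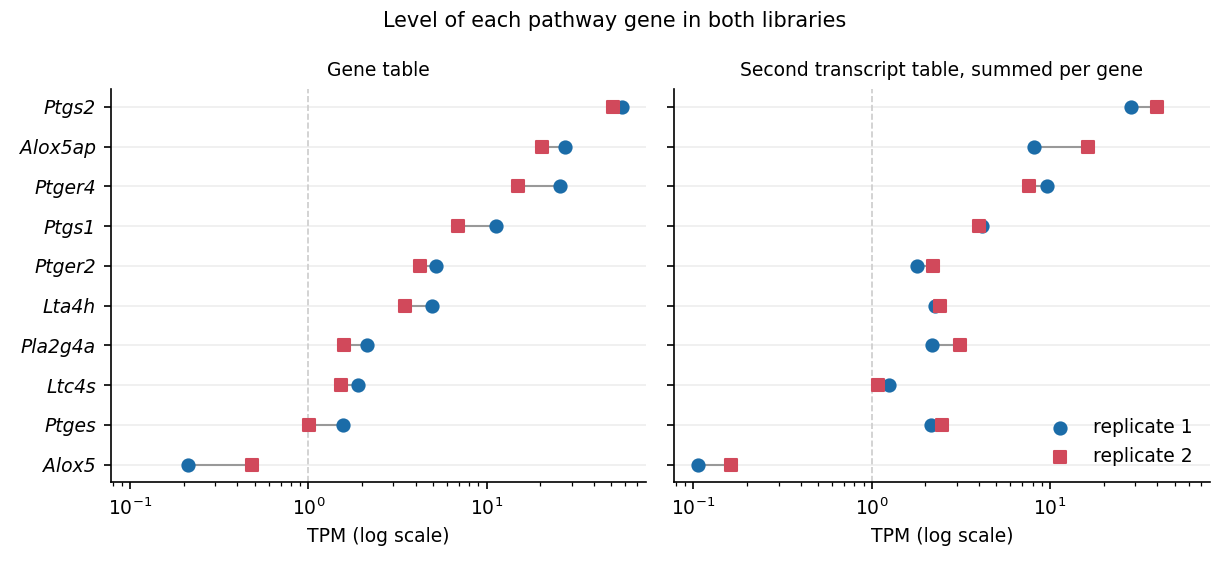
TPM of the 10 eicosanoid genes in each replicate on a log axis, from the gene table (left) and from the second transcript table summed per gene (right); each point is 1 library and the dashed line is at a TPM of 1. Ptgs2 is highest and Alox5 lowest in both tables, while the middle of the order differs between them.

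The order by mean TPM was Ptgs2, Alox5ap, Ptger4, Ptgs1, Ptger2, Lta4h, Pla2g4a, Ltc4s, Ptges and Alox5. Each neighbouring pair stood in this order in both libraries. The ranges of the libraries overlapped between Alox5ap and Ptger4, Ptger2 and Lta4h, Pla2g4a and Ltc4s, and Ltc4s and Ptges. Within a library, where the shift between libraries plays no part, these neighbours still differed by little: the mean difference in log2(TPM + 1) was 0.25 ± 0.24, 0.14 ± 0.12, 0.07 ± 0.05 and 0.25 ± 0.11 (SD, n = 2) for the 4 pairs. The ranges did not overlap for Ptgs2 over Alox5ap, Ptger4 over Ptgs1, Ptgs1 over Ptger2, Lta4h over Pla2g4a, and Ptges over Alox5. In the second transcript table, made by another estimate of transcript levels, the middle of the order differed. There Lta4h, Pla2g4a and Ptges lay above Ptger2 in both libraries, and Ptges lay above Ltc4s. Lta4h was below Pla2g4a in replicate 2, with a TPM of 2.402 against 3.11, and Alox5ap was below Ptger4 in replicate 1, with 8.19 against 9.59.

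Arachidonic acid release was represented by Pla2g4a, which encodes cytosolic phospholipase A2 alpha. The gene spans chr1:149829618-149961290 on the minus strand (mm10) and had 143 and 95 expected counts, or a TPM of 2.12 and 1.58. Its mean TPM of 1.85 ± 0.382 (SD, n = 2) placed it at rank 7710 and 7773 among the protein-coding genes. The coding transcript Pla2g4a-201 held 79.8% and 77.0% of its TPM, and the retained-intron transcript Pla2g4a-204 held 20.2% and 16.7%. The second table gave a higher TPM, 2.19 and 3.11, of which 1.42 and 2.02 lay on Pla2g4a-203, a non-coding transcript of 247 bases that had 0 counts in the first table. The level of this gene therefore depends on how reads were shared among its transcripts. Pla2g4a and Ptgs2 lie close together on chromosome 1 and are transcribed away from each other, with 138.7 kb between their starts.

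The first committed step of prostaglandin synthesis is made by either of a pair of cyclooxygenases, Ptgs1 (COX-1, present in many resting cells) and Ptgs2 (COX-2, an early-response gene in macrophages). Ptgs2 (chr1:150100031-150108227, plus strand) had 5956 and 5030 expected counts, which is 282 and 322 CPM when scaled to library size. Its TPM averaged 54.3 ± 4.55 (SD, n = 2), rank 817 and 645 of 22015. The protein-coding genes nearest to it in mean TPM were Gnb2 with 64.6 and 44.3 and Zfp131 with 66.7 and 42.1 just above it, and Tax1bp1 with 61.8 and 46.7 and Herc6 with 65.6 and 43.0 just below it. Ptgs1 (chr2:36230426-36252272, plus strand) had 603 and 353 expected counts and a TPM of 11.3 and 6.88, or 9.07 ± 3.10 (SD, n = 2), rank 3597 and 4093. Thus Ptgs2 exceeded Ptgs1 in both libraries. The difference Ptgs2 minus Ptgs1 in log2(TPM + 1) was 2.26 in replicate 1 and 2.73 in replicate 2, a mean of 2.49 ± 0.33 (SD, n = 2), and the TPM ratio was 5.11 and 7.43.

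Both cyclooxygenase genes also differ in the kinds of transcript annotated. Ptgs2 has 2 annotated transcripts, both protein coding, so its TPM could lie on coding transcripts only. Of 5 annotated transcripts of Ptgs1, 1 is coding. In the first table the TPM of Ptgs2 lay on Ptgs2-201 alone, a transcript of 4453 bases in 10 exons. The second table divided it between Ptgs2-201, with a TPM of 22.3 and 27.1, and Ptgs2-202, a coding transcript of 358 bases, with 6.27 and 12.8. For Ptgs1, the coding transcript Ptgs1-201 held 57.4% and 53.3%, and the non-coding processed transcripts Ptgs1-204 and Ptgs1-203 held 23.3% and 29.0%, and 11.3% and 16.3%. Over protein-coding transcripts alone, the difference Ptgs2 minus Ptgs1 was 3.23 ± 0.36 (SD, n = 2). By annotation, only Ptgs1 can lose level in this setting. Beside Ptgs2, the non-coding gene Ptgs2os starts 68 bases away on the opposite strand and had 11 and 9 expected counts, a TPM of 0.29 and 0.22. Ptgs2os2, downstream of Ptgs2, had 52 and 25 counts and a TPM of 1.39 and 0.70.

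The sequences before the starts of both genes are shown because these enzymes share a reaction and stand at different levels. Each window runs from 250 bases before the RefSeq start to 30 bases after it (GRCm38.p6), at chr1:150099781-150100060 on the plus strand for Ptgs2 and chr2:36230176-36230455 on the plus strand for Ptgs1. Capitals mark motifs that were searched on both strands: GGGCGG (GC box), TTGCGCAA (a C/EBP palindrome), TGACGT (the core of the cyclic AMP response element, CRE, here as ACGTCA) and CACGTG (E-box).
Ptgs2: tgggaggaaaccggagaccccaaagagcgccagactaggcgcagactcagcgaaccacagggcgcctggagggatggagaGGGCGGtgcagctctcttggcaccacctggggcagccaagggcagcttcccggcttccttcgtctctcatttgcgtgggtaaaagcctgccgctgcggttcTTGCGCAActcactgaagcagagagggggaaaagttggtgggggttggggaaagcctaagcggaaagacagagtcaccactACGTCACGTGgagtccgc
Ptgs1: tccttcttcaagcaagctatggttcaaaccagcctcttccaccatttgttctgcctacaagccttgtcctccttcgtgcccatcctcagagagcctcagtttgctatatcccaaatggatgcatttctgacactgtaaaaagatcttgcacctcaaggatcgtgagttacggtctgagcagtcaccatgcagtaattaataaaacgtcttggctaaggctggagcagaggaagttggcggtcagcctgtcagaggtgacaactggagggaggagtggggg
The Ptgs2 window held a GC box at -170 to -165, the C/EBP palindrome at -69 to -62, and a CRE core at 13 to 18 that overlaps an E-box at 17 to 22, counted from the start as 1. The Ptgs1 window held none of these letters and is therefore all in lower case. Of 32851 RefSeq promoter windows of the same length, 34.7% held the GC box, 7.26% the CRE core, 6.79% the E-box and 0.18% the C/EBP palindrome (59 windows). Windows were found for 9 of 10 members, 10 windows in all. The GC box was also in those of Alox5, Ptger4 and Ptges, while the other motifs marked above were in the Ptgs2 window alone. The AP-1 motif TGANTCA, in 7.46% of all windows, and the NF-kB consensus GGGRNNYYCC, in 7.94%, were in 0 of 10 member windows. Here N is any base, R is A or G, and Y is C or T. Sequence further upstream was not searched, so sites there would be missed. A match is a description of letters, and binding was not measured.

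Terminal synthesis of prostaglandin E2 was represented by Ptges, the inducible microsomal synthase that is known to act with COX-2. Ptges (chr2:30889471-30929863, minus strand) had 107 and 61 expected counts and a TPM of 1.56 and 1.01, or 1.29 ± 0.389 (SD, n = 2), rank 8338 and 8712. Among the members, only Alox5 was lower. Ptges3, the cytosolic synthase, which is also the co-chaperone p23, had a TPM of 12.8 and 11.7. The difference Ptges minus Ptges3 in log2(TPM + 1) was -2.43 and -2.65, a mean of -2.54 ± 0.16 (SD, n = 2). Ptges2, another membrane-associated synthase, had a TPM of 0.89 and 0.35. Ptges-202, the coding transcript, held 78.9% and 71.9% of the TPM of Ptges in the first table, and the processed transcript Ptges-201 held 21.1% and 28.1%. In the second table only 20.8% and 15.5% was on coding transcripts, and the non-coding Ptges-204, of 543 bases, had a TPM of 1.05 and 1.44 against 0 in the first table. The pseudogene Gm13400 lies within Ptges on the same strand without meeting its exons and had 23 and 14 counts.

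The receptors among the members are Ptger4 and Ptger2, which encode the EP4 and EP2 receptors of prostaglandin E2, both coupled to cyclic AMP. Ptger4 (chr15:5206661-5244187, minus strand) had 1945 and 1073 expected counts and a TPM of 25.9 and 15.0, or 20.5 ± 7.70 (SD, n = 2), rank 1868 and 2304. Ptger2 (chr14:44988195-45003820, plus strand) had 334 and 259 expected counts and a TPM of 5.18 and 4.23, or 4.71 ± 0.672 (SD, n = 2), rank 5515 and 5301. Ptger4 was higher in both libraries: Ptger4 minus Ptger2 in log2(TPM + 1) was 2.12 and 1.62, a mean of 1.87 ± 0.36 (SD, n = 2), with a TPM ratio of 5.004 and 3.55. Over protein-coding transcripts alone the difference was 3.43 ± 0.44. Ptger4 lay almost entirely on coding transcripts, Ptger4-201 with 64.3% and 62.4% and Ptger4-202 with 34.95% and 35.8%. It overlaps exons of Ttc33 on the opposite strand, which had 84 and 57 counts, and the pseudogene Gm15937, with 3.72 and 5.07. Of the other EP receptors, Ptger1 had a TPM of 2.75 and 1.84 and Ptger3 of 0.41 and 0.25.

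Most of the level of Ptger2 lay on a transcript that does not splice its intron. Ptger2-202, annotated as a retained intron, held 80.8% and 80.7% of its TPM, with 250 and 193 expected counts, and the coding Ptger2-201 held 19.2% and 19.3%, with 84.5 and 65.9. The second table gave nearly the same division, with a TPM of 1.45 and 1.83 on Ptger2-202 and 0.347 and 0.380 on Ptger2-201. Among the 9 detected members, Ptger2 was the 1 whose coding transcripts held under 50% of TPM in both, against 19.0% of all such genes (1639 of 8622). In the second table Pla2g4a, with 28.8% and 22.7% on coding transcripts, and Ptges were also under 50% in both libraries. Over all 8622 detected genes, the median share on coding transcripts in the first table was 73.4% and 74.6%. Ptger2-202 consists of 1142 bases of exon 1 and the first 1509 bases of intron 1, which is 11942 bases long. By annotation, only this start of the intron can set it apart from Ptger2-201. Where reads lie along the intron was not examined. Within the first 1509 bases of intron 1, reads of unspliced precursor RNA and of Ptger2-202 cannot be told apart.

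The boundary at which the transcripts part is shown from the GENCODE M21 transcript sequences, with the last 30 bases of exon 1 in lower case and the 30 bases after it in capitals. The capitals are exon 2 in the spliced transcript Ptger2-201 and intron 1 in Ptger2-202, where the stretch is chr14:44989778-44989837 on the plus strand (mm10).
Ptger2-201: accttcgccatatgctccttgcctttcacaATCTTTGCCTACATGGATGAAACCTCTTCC
Ptger2-202: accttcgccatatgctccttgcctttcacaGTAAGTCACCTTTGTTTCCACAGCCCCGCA
In the unspliced form the capitals open with GT, the usual first bases of an intron. The antisense genes Gm49364 and Gm17173 cross Ptger2 exons on the opposite strand, with 2 and 0, and 3 and 2 expected counts, few beside the counts of Ptger2.

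**Figure D2:**
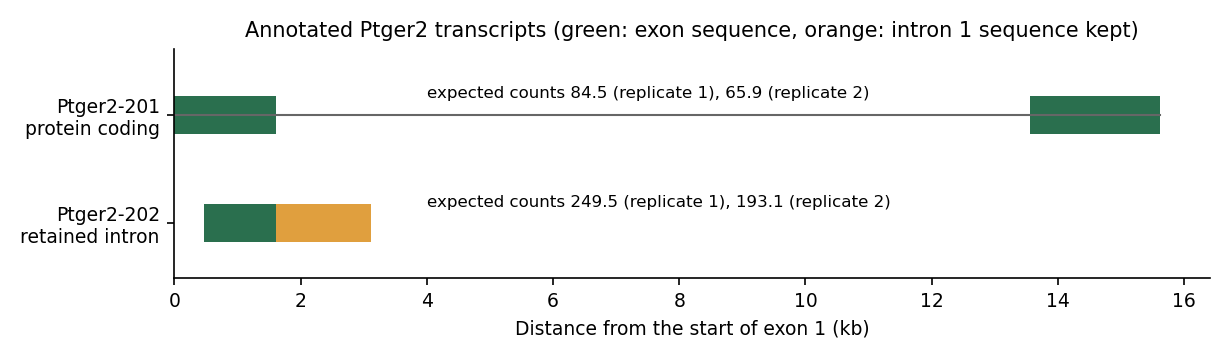
Exon structure of the Ptger2 transcripts by distance from the gene start in kb, with green boxes for exons, an orange box for intron sequence kept in Ptger2-202, a line for the spliced intron, and the expected counts of both libraries beside each transcript. Ptger2-202 runs from exon 1 into the intron and holds 250 and 193 counts, against 84.5 and 65.9 on the spliced Ptger2-201.

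The leukotriene branch was uneven: the gene of the activating protein was the second highest member, and the gene of the enzyme it serves was the lowest. Alox5ap, which encodes the 5-lipoxygenase activating protein FLAP (chr5:149264767-149288153, plus strand), had 479 and 402 expected counts and a TPM of 27.4 and 20.5, or 24.0 ± 4.88 (SD, n = 2), rank 1776 and 1741. Alox5 (chr6:116410077-116461178, minus strand) had 5 and 10 expected counts, with exact 95% Poisson intervals of 1.62 to 11.7 and 4.80 to 18.4 that cover counting error only. Its TPM was 0.21 and 0.48, rank 11324 and 9981. Alox5ap minus Alox5 in log2(TPM + 1) was 4.55 and 3.86, a mean of 4.21 ± 0.49 (SD, n = 2). The TPM ratio was 130 and 42.7, and it rests on these few Alox5 counts. Ptgs2 minus Alox5, the difference between the entry enzymes of the prostaglandin and leukotriene branches, was 5.60 and 5.14, a mean of 5.37 ± 0.32.

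The transcripts of these genes differed as well. Of the Alox5 counts, 3 and 6.59 lay on the retained-intron transcript Alox5-206, which is 77.5% and 80.6% of its TPM. The coding Alox5-207 held 22.5% in replicate 1 and 0% in replicate 2, which had 0 counts on any coding transcript of Alox5 in the first table. Alox5ap lay on the coding Alox5ap-201, with 56.8% and 74.8%, the coding Alox5ap-202, with 10.7% and 5.52%, and the processed transcript Alox5ap-204, with 32.5% and 19.7%. The antisense gene Gm19719 crosses Alox5ap exons and had 25 and 34 expected counts, far fewer than Alox5ap. The small rRNA gene n-R5s180 inside Alox5ap had 0 counts in both libraries, as did n-R5s219 inside Pla2g4a and Gm43621, which crosses Ptgs1 exons on the opposite strand.

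Leukotriene A4 is used by a pair of enzymes encoded by members, and both genes were low. Lta4h, the hydrolase that makes leukotriene B4 (chr10:93453411-93484875, plus strand), had 183 and 114 expected counts and a TPM of 4.97 and 3.49, or 4.23 ± 1.05 (SD, n = 2), rank 5615 and 5836. Ltc4s, the synthase of leukotriene C4 (chr11:50236461-50238616, minus strand), had 21.1 and 14 expected counts and a TPM of 1.89 and 1.52, or 1.71 ± 0.262 (SD, n = 2), rank 7971 and 7861. Lta4h stood above Ltc4s in both libraries, and Lta4h minus Ltc4s in log2(TPM + 1) was 1.05 and 0.83, a mean of 0.94 ± 0.15 (SD, n = 2). Ltc4s is a short gene of 2156 bases, and its TPM rests on few counts, with exact 95% Poisson intervals of 13.1 to 32.2 and 7.65 to 23.5. The antisense gene Gm26542 crosses its exons and had more counts than Ltc4s, 88.9 and 26. The strand setting is not given in the sources used here, so reads of Ltc4s and Gm26542 may not be separable, and the Ltc4s level is uncertain.

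On the transcript level, Lta4h-201, the coding form, held 67.6% and 55.1% of the TPM of Lta4h. Retained-intron transcripts of Lta4h together held 32.3% and 44.8%, but the leading one differed, Lta4h-202 with 15.4% in replicate 1 and 0% in replicate 2, and Lta4h-206 with 6.53% and 24.4%. These shares rest on under 10 counts each. For Ltc4s the coding Ltc4s-202 held 76.6% and 64.4% and the retained-intron Ltc4s-207 held 23.4% and 10.2%. Ltc4s-201 and Ltc4s-206, both coding, held 12.7% and 12.8% in replicate 2 and 0% in replicate 1.

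**Figure D3:**
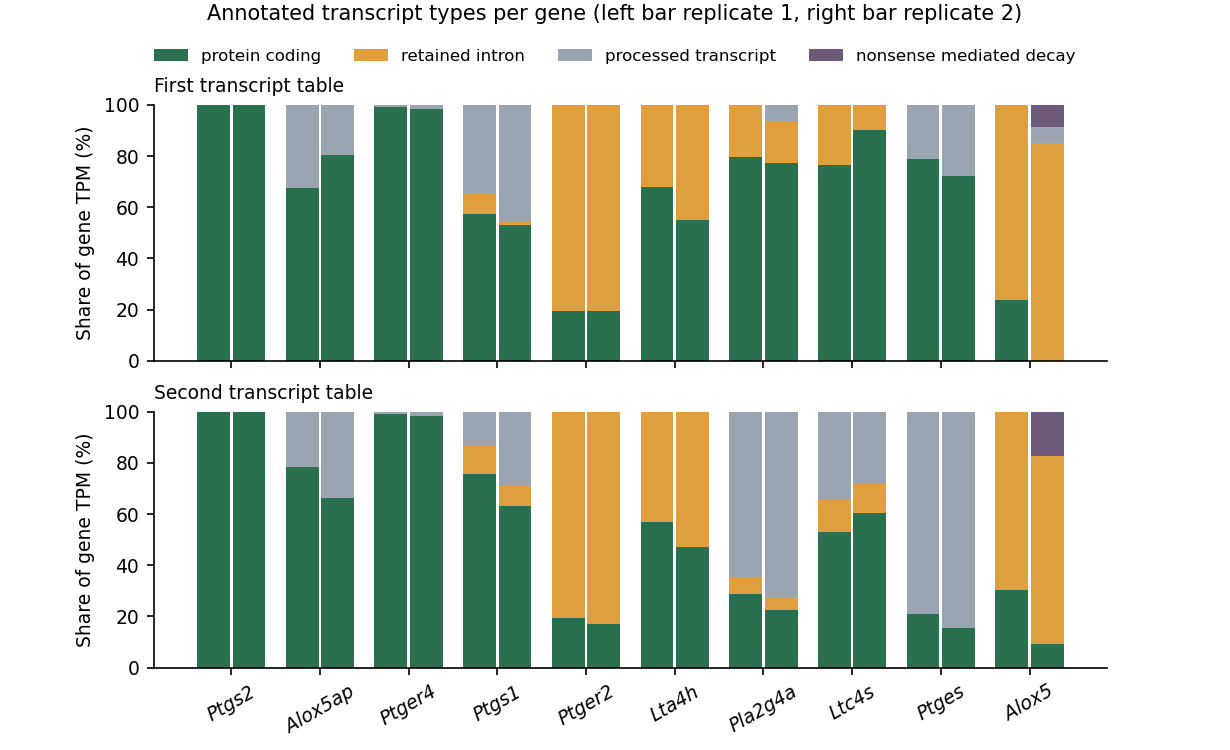
Share of the TPM of each eicosanoid gene by annotated transcript type, in percent, as stacked bars for replicate 1 (left) and replicate 2 (right), from the first (top) and the second transcript table (bottom). Ptgs2 has only coding transcripts in the annotation, and Ptger4 lies almost wholly on coding transcripts in both tables. Retained-intron transcripts hold 80.7% and 80.6% of Ptger2 in the first table, and the coding shares of Pla2g4a and Ptges are far lower in the second table.

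After normalisation by TMM, which scales libraries on the bulk of genes, no member that could be compared was beyond 2-fold between the replicates. The limit for this comparison was a mean of 50 expected counts, which 8 members passed, and 0 of these 8 lay beyond 2-fold, against 1.18% of all genes tested (119 of 10088). Log2 ratios of replicate 2 over replicate 1 were 0.25 for Ptgs2, 0.24 for Alox5ap and 0.13 for Ptger2. The ratios were -0.36 for Ptger4, -0.31 for Ptges, -0.28 for Ptgs1, -0.19 for Lta4h and -0.09 for Pla2g4a. Their median size was 0.25, against 0.18 over all genes tested, and 20.6% of genes had a larger ratio than Ptger4, the widest of the members. Ptgs2 and Ptgs1 thus had ratios of opposite sign after this scaling, as did Ptger2 and Ptger4. Ratios of this size were common: 36.1%, 31.5% and 63.1% of genes had a larger one than Ptgs2, Ptgs1 and Ptger2. With 2 libraries, no pattern between these genes can be read from the signs. Alox5 and Ltc4s were below the count limit.

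**Figure D4:**
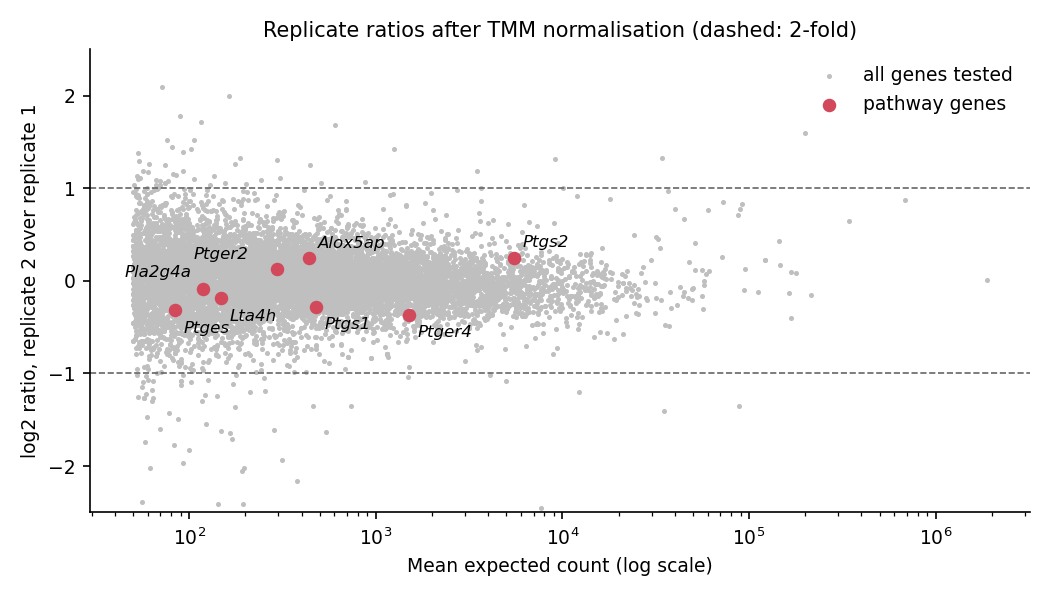
Log2 ratio of replicate 2 over replicate 1 after TMM normalisation against mean expected count (log axis) for the 10088 genes tested (grey) and the 8 eicosanoid genes among them (red); dashed lines mark 2-fold and 10 grey genes lie beyond the vertical range of 2.5. All 8 red points lie between the dashed lines, from -0.36 for Ptger4 to 0.25 for Ptgs2.

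The members were set in a wider list of 72 other genes of eicosanoid supply, synthesis, breakdown and sensing. Of these 72, 31 reached TPM 1 in each library, 11 reached TPM 10, and 14 were at 0 in both. Over all nuclear protein-coding genes 39.2% reached TPM 1 and 14.4% reached TPM 10, so the list as a whole stood near all genes. The counts for its small role groups below are descriptions to be read beside these shares. In gene TPM, Hpgds and Mapkapk2 were above Ptgs2 in both libraries, and Dpep2 and Abcc1 were above it in replicate 1 alone. Coding transcripts held 60.3% and 57.1% of the TPM of Dpep2, 43.0% and 39.4% of Abcc1, and all of Mapkapk2. By these shares and those of Hpgds, given below, Dpep2, Abcc1 and Hpgds over coding transcripts alone lay below Ptgs2 in both libraries. In arachidonate supply, 10 of 22 genes reached TPM 1 in both libraries, led by Pla2g15, a lysosomal phospholipase, with 39.6 and 29.3, and Acsl4, which joins arachidonic acid to coenzyme A, with 14.7 and 11.9. Both exceeded Pla2g4a in both libraries.

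Among 9 other prostanoid synthases and reductases, 5 reached TPM 1 in both: Hpgds, Tbxas1, Ptges3, Akr1b3 with 5.39 and 4.25, and Fam213b with 4.12 and 2.52. Hpgds, the haematopoietic prostaglandin D synthase, had a TPM of 82.3 and 61.8, above Ptgs2 in both libraries. Tbxas1, the thromboxane A synthase, had 46.9 and 28.7, below Ptgs2 in both. Among these 4 synthases that take prostaglandin H2, Hpgds and Tbxas1 therefore stood above Ptges3 and Ptges in gene TPM, with Ptges the lowest. Ptges2, given above, was lower than Ptges in both libraries. Coding transcripts held 47.3% and 47.8% of the TPM of Hpgds, 45.9% and 28.2% of Tbxas1, and 91.7% and 96.3% of Ptges3. By these shares, Hpgds over coding transcripts alone lay below Ptgs2 and above Ptges3 in both libraries. Tbxas1 over coding transcripts alone lay above Ptges3 in replicate 1 and below Ptges3 in replicate 2. Ptgds and Ptgis, which encode the lipocalin-type prostaglandin D synthase and the prostacyclin synthase, were at 0. Hpgd, which starts prostaglandin breakdown, had 1 and 1 expected counts, a TPM of 0.03 and 0.03, and 2 of 5 breakdown and transport genes reached TPM 1. These were Ptgr2, a prostaglandin reductase, with 2.80 and 2.63, and Abcc4, an exporter of prostaglandins, with 3.47 and 2.04.

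Among 8 other entries of the prostanoid receptor list, 2 reached TPM 1 in both libraries, Ptger1, given above, and Ptgir, the prostacyclin receptor, with 3.91 and 3.24. Ptger1 did not reach it in the second table, with 0.73 and 0.81. Coding transcripts held 30.5% and 31.0% of the TPM of Ptger1 in the first table. All 8 entries stood below Ptger4 in both libraries, and Ptger4 and Ptger2 were the highest EP receptor genes. Like Alox5, 7 of 7 other lipoxygenase and epoxide enzyme genes lay below TPM 1 in both libraries, and Alox12b, Alox12e and Ephx2 were at 0 in both.

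In leukotriene metabolism and transport, 5 of 9 genes reached TPM 1 in both libraries. Dpep2, a dipeptidase that can turn leukotriene D4 into E4, had a TPM of 72.8 and 42.9, and Abcc1, an exporter of leukotriene C4, had 59.9 and 37.9. Mgst1, a microsomal glutathione transferase related to Ltc4s, had 19.1 and 27.5. These genes, which act after or beside Ltc4s, were each above it in both libraries. The others were Ggt5 with 2.02 and 1.83 and Cyp4f18, which breaks down leukotriene B4, with 3.75 and 1.49. The list of leukotriene and lipoxin receptors holds 8 genes and includes Cmklr1, which encodes the chemerin receptor. Of these 8, 3 reached TPM 1 in both: Cmklr1 with 6.62 and 5.20, Fpr2 with 4.15 and 2.21, and Cysltr2 with 1.77 and 1.22. The second table gave Cmklr1 a TPM of 23.4 and 23.9. Ltb4r1, the leukotriene B4 receptor BLT1, had 0 and 1 expected counts, and 3 counts would be 0.142 and 0.192 CPM. Cysltr1, a receptor of cysteinyl leukotrienes, had a TPM of 0.96 and 1.00. All 4 genes for partners of 5-lipoxygenase reached TPM 1. Mapkapk2, a kinase that can phosphorylate it, had a TPM of 145 and 106. Cotl1, a protein that binds it, had 26.5 and 17.8, Mapk14, which activates Mapkapk2, had 25.2 and 23.0, and Dicer1, which binds it too, had 6.60 and 6.07.

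**Figure D5:**
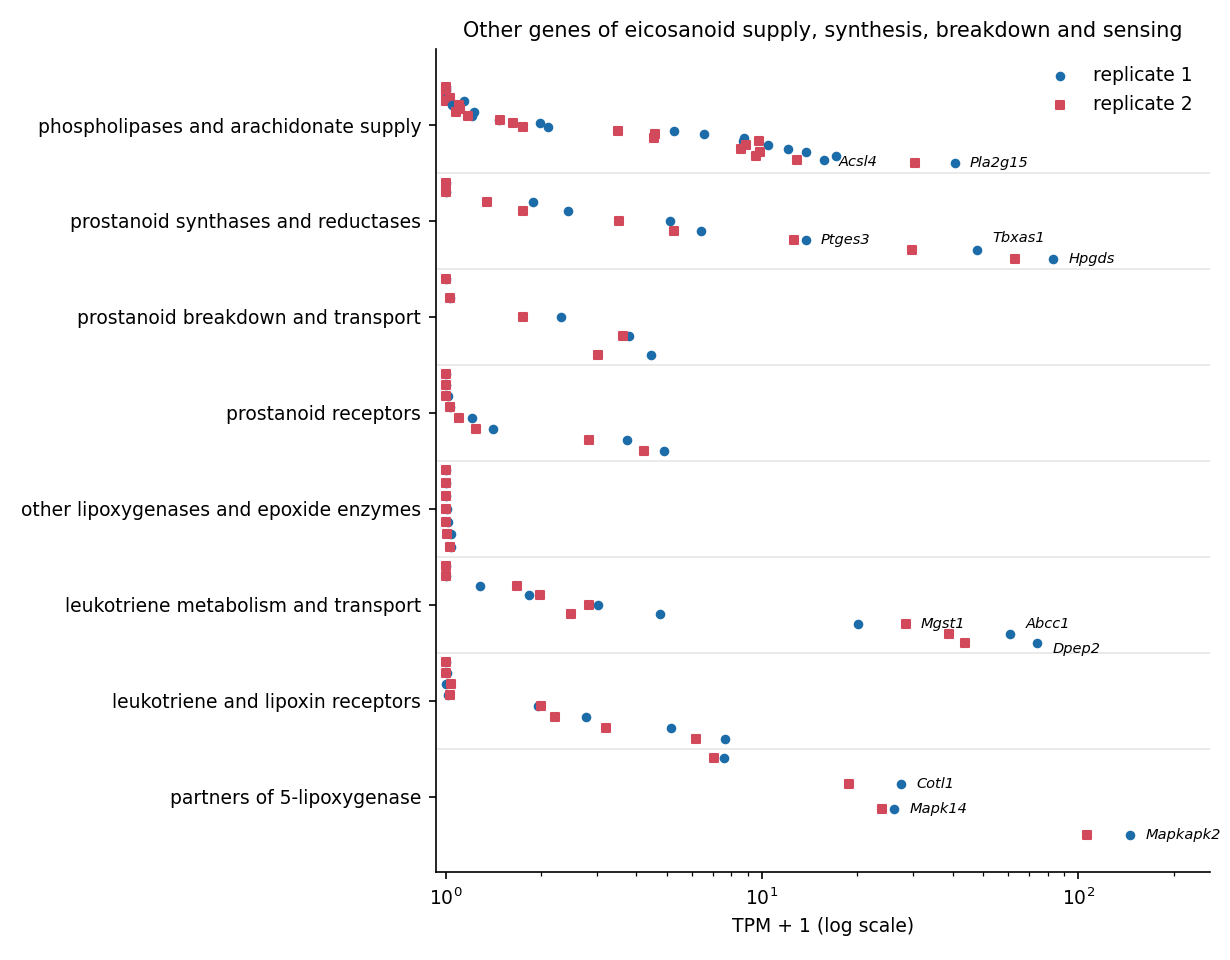
TPM + 1 on a log axis of the 72 other eicosanoid genes in 8 role groups, replicate 1 as circles and replicate 2 as squares, with names for genes that reached TPM 10 in each. Hpgds, Dpep2 and Mapkapk2 are the highest of their groups, and all 7 other lipoxygenase and epoxide enzyme genes lie at the left edge.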

How the data were processed

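Ribosomal-RNA-depleted RNA of the nucleoplasm was measured in 2 libraries of 1 group. The input was 1 µg for replicate 1 and 500 ng for replicate 2, per the labels. Each library came with a gene table and 2 transcript tables on mm10 with GENCODE M21, per the file headers. Expected counts, TPM and the percent of a gene's level on each transcript were deposited by the authors. The estimated counts and TPM of the second transcript table were also deposited by the authors and were summed per gene here. For the aligner, the quantifiers and the strand, the sources used here give nothing.

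Entries that name no mouse gene, 0.662% and 0.232% of the expected counts, were left out of library sizes. Levels were set against each other per length only, as log2(TPM + 1) within each library, and given as mean ± SD. For the replicate ratios, expected counts were rounded, and edgeR 4.0.16 (R 4.3.3) gave TMM factors. Ratios were taken with 0.5 added, over genes with a mean of at least 50. This step was run on simulated counts with planted changes, which checks the code and not the spread between these libraries. DESeq2 1.42.0 size factors, no filter, a pseudocount of 0.1, the second table, coding transcripts alone and leaving out each replicate were alternatives. Other steps used numpy 2.4.6, pandas 2.3.3, scipy 1.17.1 and matplotlib 3.10.9. Coordinates are 1-based. Promoter windows came from RefSeq (GRCm38.p6) and transcript sequences from GENCODE M21. Reads carry no molecular identifiers, so intervals and the floor of 3 counts cover counting error only.

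Members and lists were chosen with earlier results of these data known. The rule for names took all members, their transcripts with at least 10% of TPM in either library, overlapping genes, the protein-coding genes next to Ptgs2 in level, other pathway genes that reached TPM 10 in each library, and Ptges2, Ptges3, Tbxas1, Hpgds, Hpgd, Ptger1, Ptger3, Ltb4r1 and Cysltr1. Ptgs2os, Ptgs2os2, Ptgs2-202, Pla2g4a-203, Ptges-204, Ptgds, Ptgis, other pathway genes behind a count of 5 or fewer, and single marker genes were named after their values were seen. Where a symbol had several gene entries (Dpep2), the higher was used. Proteins of the members are not shown.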

Additional observations from a re-analysis of the deposited data

How the results depend on the processing

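No paired analysis was possible because the libraries form 1 group. None of the 6 differences between genes changed sign under the alternatives run. With a pseudocount of 0.1, differences in log2 level were 5.81 for Alox5ap minus Alox5, 1.25 for Lta4h minus Ltc4s, 7.001 for Ptgs2 minus Alox5 and -3.18 for Ptges minus Ptges3, and the members' median was 2.18. With the second transcript table they were 3.48, 0.62, 4.94 and -1.42 in the same order, the median was 1.80, and 1 member, Ptgs2, reached TPM 10 in both libraries. A lower TPM there was not limited to members. The genes nearest to Ptgs2 in level were lower too. Mean TPM was 24.8 against 54.5 for Gnb2 and 37.5 against 54.4 for Zfp131. It was 27.7 against 54.3 for Tax1bp1 and 33.3 against 54.3 for Herc6. How much of the shift in the members is shared by all genes was not tested. With coding transcripts alone, Ptgs2 minus Ptgs1 was 3.23, Ptger4 minus Ptger2 3.43, Lta4h minus Ltc4s 0.57, Ptgs2 minus Alox5 5.75 and the median 1.58. Median levels and shares reaching a TPM limit over all genes were not computed under these alternatives. The cause of these shifts was not tested. Without the count filter 1 member, Alox5, passed 2-fold between replicates, with a log2 ratio of 1.41 from 5 and 10 counts. Of the other recomputed differences, medians and counts, 12 moved by less than 1 SD, or stayed within 1.5 times for counts. Among these 12 is the number of members at TPM 1 in both libraries, 9 as reported and 7 with coding transcripts alone. Another 18 left out 1 replicate, and where the value is a mean of 2 libraries this always moves it by less than 1 SD and so tests nothing. Single levels of members moved by more than 1 SD in 22 cases, 10 with the second table, 7 with coding transcripts alone and 5 with the pseudocount, for example Ptgs2 to 5.12 and Ptgs1 to 2.34 with the second table and Ptger2 to 0.93 with coding transcripts, against 5.79, 3.30 and 2.51 as reported. Alox5 had a log2 level of 0.42 as reported and -1.24 with the pseudocount of 0.1. Depth limits Alox5 and Ltc4s most.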
